A study of Mus musculus with 18 samples.

Results

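The 9 genes described here are the 3 GADD45 genes (Gadd45a, Gadd45b and Gadd45g), the CDK inhibitors Cdkn1a and Cdkn1b, the antiproliferative genes Btg1 and Btg2, the p53 inhibitor Mdm2 and the G1 cyclin Ccnd1. They were chosen by gene symbol, and all 9 were found in each kit's gene table, out of 21018 genes listed in at least 1 table. Liver RNA came from male C57/B6J mice, 12 weeks old, of which 3 (I9579, I9582 and I9583) received 20 µg/kg of IL-1β and 3 (U9574, U9575 and U9576) received saline, 4 hours before the livers were taken. RNA of each mouse was prepared with 3 kits, which gave 18 libraries, 1 per mouse and kit. Pico is a stranded kit for total RNA at low input, V4 is an unstranded low-input kit that starts from poly(A) tails, and TruSeq is the stranded poly(A) kit used at standard input. The libraries were whole liver, so fewer cells of a type and less RNA per cell cannot be told apart.

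GADD45 proteins are small stress sensors that bind cell cycle and repair proteins and activate the kinase MAP3K4 upstream of p38 and JNK. Cdkn1a and Cdkn1b encode inhibitors of cyclin-dependent kinases, BTG proteins bind the CCR4-NOT deadenylase and slow growth, MDM2 marks p53 for degradation, and cyclin D1 drives entry into the cycle. In liver, genes of this kind are known as early responders to cytokines, injury and loss of tissue.

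After IL-1β, Cdkn1a, Gadd45g and Btg2 rose in all 3 kits, by 78.7 to 118-fold, 10.9 to 26.8-fold and 6.0 to 8.06-fold. Gadd45b rose 7.0-fold in V4 and 4.81-fold in TruSeq, while Gadd45a fell by 1.67 on the log2 scale in TruSeq and by 2.73 in Pico. Cdkn1b, Btg1 and Ccnd1 passed the test in no kit, and Mdm2 passed it in TruSeq only, at 1.28-fold. The family members Gadd45a and Gadd45b thus moved in opposite directions in the same libraries.

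The promoters of the 5 genes with the largest changes are shown because these genes moved together or, for Gadd45a, against the others. The sequences are RefSeq windows of up to 250 bases before the start site from a table for GRCm38.p6, written 5′ to 3′. Each window matched the gene's own mm9 chromosome exactly once on the strand given, at the mm9 position given. Other chromosomes were not searched. Capitals mark the motifs searched on both strands, which were CRE (TGACGTCA), AP-1 (TGANTCA), E-box (CACGTG), STAT (TTCNNNGAA), C/EBP (TTNNGNAA), CCAAT box (CCAAT), TATA box (TATAAA), octamer (ATTTGCAT), and the NF-kappaB and p53 half-site consensus.
Gadd45a, chr6:66987452-66987651, minus strand: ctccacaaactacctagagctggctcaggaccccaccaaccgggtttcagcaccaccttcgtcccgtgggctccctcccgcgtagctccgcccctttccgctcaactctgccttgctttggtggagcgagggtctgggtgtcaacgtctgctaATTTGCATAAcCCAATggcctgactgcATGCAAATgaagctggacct
Gadd45b, chr10:80392586-80392835, plus strand: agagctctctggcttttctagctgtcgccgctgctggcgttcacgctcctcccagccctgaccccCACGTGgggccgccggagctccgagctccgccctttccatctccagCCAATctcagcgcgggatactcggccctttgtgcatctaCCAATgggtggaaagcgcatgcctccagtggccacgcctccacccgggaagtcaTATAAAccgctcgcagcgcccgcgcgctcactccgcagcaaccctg
Gadd45g, chr13:51941794-51942043, plus strand: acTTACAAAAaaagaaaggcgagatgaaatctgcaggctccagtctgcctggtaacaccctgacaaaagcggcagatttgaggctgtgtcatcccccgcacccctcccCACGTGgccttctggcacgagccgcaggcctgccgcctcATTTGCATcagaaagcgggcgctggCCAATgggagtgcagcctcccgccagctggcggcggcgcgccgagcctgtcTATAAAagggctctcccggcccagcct
Cdkn1a, chr17:29227674-29227923, plus strand: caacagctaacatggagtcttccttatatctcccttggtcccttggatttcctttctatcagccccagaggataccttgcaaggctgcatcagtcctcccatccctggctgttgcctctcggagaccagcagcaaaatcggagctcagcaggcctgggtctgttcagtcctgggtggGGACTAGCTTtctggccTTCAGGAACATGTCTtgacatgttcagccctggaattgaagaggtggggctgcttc
Btg2, chr1:135975733-135975982, minus strand: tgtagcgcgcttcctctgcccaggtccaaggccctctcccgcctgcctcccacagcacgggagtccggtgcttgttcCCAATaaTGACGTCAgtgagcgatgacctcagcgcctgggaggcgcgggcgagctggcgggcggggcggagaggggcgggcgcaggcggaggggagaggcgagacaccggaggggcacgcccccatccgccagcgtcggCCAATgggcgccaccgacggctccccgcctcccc

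Promoter windows were found for 8 of the 9 genes. The E-box stood at -185 in Gadd45b and at -142 in Gadd45g, each followed by a CCAAT box and a TATA box, and 6.02% of all 32851 windows hold that E-box letter run. Gadd45a held 2 octamers, at -97 and -70, and Gadd45g held 1 at -103, against 1.6% of all windows. Btg2 held the single CRE of the set, at -166, which 1.55% of windows hold. Cdkn1a held 2 p53 half-sites, at -73 and -51 from the first of its 2 listed starts, and Mdm2 held 1 at -186, against 7.13% of windows. The window of the second Cdkn1a start, which is not printed, held none of the motifs searched. A further half-site in Gadd45a, at -40, lies in bases that the mm9 annotation gives to its first exon, which are not printed. The C/EBP letters overlapped an octamer in Gadd45a and a half-site in Cdkn1a and stood alone at -248 in Gadd45g, and 36.8% of windows hold them. CCAAT boxes occurred in 33.8% and TATA boxes in 12.4% of windows. NF-kappaB (7.25% of windows), AP-1 (6.75%) and STAT (7.02%) letters were in none of the members' windows.

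The deposited values are read counts per gene after the authors' resampling to a common depth within each kit. Gene totals were 12348864 to 12858237 counts for TruSeq, 12013453 to 12352473 for V4 and 4024632 to 4134070 for Pico, so counts within a kit can be compared nearly as they stand. Levels below are counts or CPM (counts scaled to the library total), and fold changes, standard errors (SE) and adjusted p-values (q) come from limma-voom fitted over all genes of a kit. A gene was called at a q of at most 0.05. Over all genes tested the log2 fold change had a median of -0.17 in TruSeq, -0.22 in V4 and -0.12 in Pico, and TMM scaling raised these medians by 0.16, 0.17 and 0.13. Relative to the median, Mdm2 stood at 0.53 in TruSeq, and Cdkn1b, Btg1 and Ccnd1 at -0.11, -0.05 and -0.10. In the sentences below the 3 IL-1β mice are given in the order I9579, I9582, I9583 and the 3 saline mice in the order U9574, U9575, U9576.

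**Figure D1:**
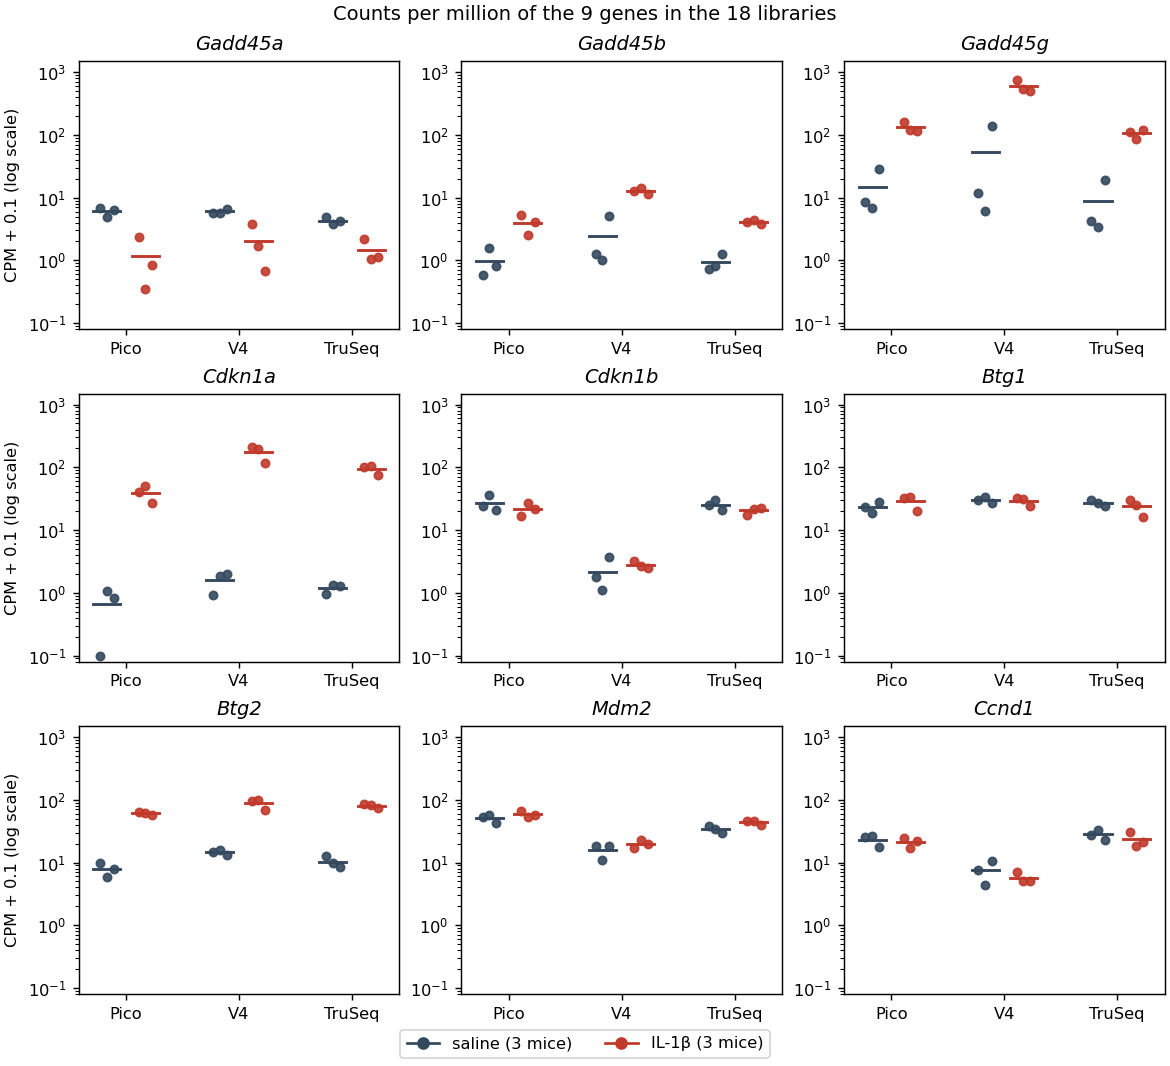
CPM plus 0.1 (log axis) of the 9 genes in each of the 18 libraries, by kit, with saline mice in dark blue, IL-1β mice in red and bars at the group mean (n = 3). Cdkn1a, Gadd45g, Gadd45b and Btg2 stand higher in every IL-1β library than in any saline library of the same kit, Gadd45a stands lower, and 1 saline mouse is high for Gadd45g in each kit.

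Gadd45g, the most abundant of the family per exon length, lies at chr13:51942047-51943837 in mm9. In TruSeq it had 1391, 1059 and 1466 counts after IL-1β and 53, 43 and 242 after saline. In V4 the counts were 9138, 6395 and 5958 against 141, 73 and 1727. In Pico they were 649, 485 and 467 against 35, 28 and 117. The groups did not overlap in any kit, and saline mouse U9576 was the highest of its group in each. Its level was 4.99 times the mean of the other 2 saline mice in TruSeq, 15.7 times in V4 and 3.68 times in Pico. The log2 fold change was 4.01 (SE 0.45, q = 0.000149) in TruSeq, 4.74 (SE 0.71, q = 0.00214) in V4 and 3.45 (SE 0.35, q = 3.40e-06) in Pico by limma-voom. Without U9576 it was 4.78, 6.10 and 4.08, and without U9575 the V4 value was 3.83, each past the threshold. By edgeR with TMM scaling the log2 fold change was 3.74 in TruSeq, 3.70 in V4 and 3.30 in Pico, so its size depended on the method, most in V4.

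Gadd45b, a known target of NF-kappaB, lies at chr10:80392836-80394949. Its counts in TruSeq were 50, 54 and 46 after IL-1β and 8, 9 and 15 after saline. V4 gave 152, 171 and 137 against 14, 11 and 62. Pico gave 21, 10 and 16 against 2, 6 and 3. No saline library reached an IL-1β library of its kit, and U9576 was the highest saline mouse in V4 and TruSeq but not in Pico. The log2 fold change was 2.81 (SE 0.56, q = 0.00944) in V4 and 2.27 (SE 0.29, q = 0.000322) in TruSeq. In Pico it was 2.04 (SE 0.69), and the limma-voom q of 0.0504 missed the threshold, with 2 to 21 counts per library. The V4 call was lost without U9574 (q = 0.0576) or without U9575 (q = 0.0638), and without U9576 the V4 log2 fold change was 3.56 (q = 0.00839).

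Gadd45a, the p53 target of the family, lies at chr6:66985090-66987451 on the minus strand. TruSeq counted 26, 12 and 13 reads after IL-1β and 60, 48 and 53 after saline. V4 counted 45, 19 and 7 against 68, 68 and 80. Pico counted 9, 1 and 3 against 28, 20 and 26. All IL-1β libraries were below all saline libraries of their kit, and I9579 was the highest of the treated mice in each. The log2 fold change was -1.67 (SE 0.30, q = 0.00214) in TruSeq and -2.73 (SE 0.69, q = 0.0102) in Pico by limma-voom. In V4 the value of -1.93 (SE 0.60) did not pass the test (q = 0.0629). The Pico call was lost without I9582 (q = 0.0838) or without I9583 (q = 0.0697), and the Pico value was -3.41 without I9579. The antisense lincRNA E230016M11Rik shares 337 exon bases with Gadd45a, 19.1% of the latter's exons, and it had 3, 3 and 0 counts after IL-1β against 27, 25 and 24 after saline in TruSeq. V4 carries no strand, so there reads of the shared stretch cannot be assigned to either gene.

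The 3 family members therefore made up different parts of the GADD45 transcripts in the 2 treatments. Per exon length, Gadd45g made up 94.8% to 98.2% of the 3 genes in the 9 IL-1β libraries and 51.6% to 94.0% in the 9 saline libraries. Gadd45a made up 2.90% to 39.8% after saline and 0.076% to 1.19% after IL-1β. The lowest Gadd45a share among the saline libraries was that of U9576 in each kit. The share of Gadd45b ranged from 1.51% to 4.48% after IL-1β and from 2.03% to 11.9% after saline.

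**Figure D2:**
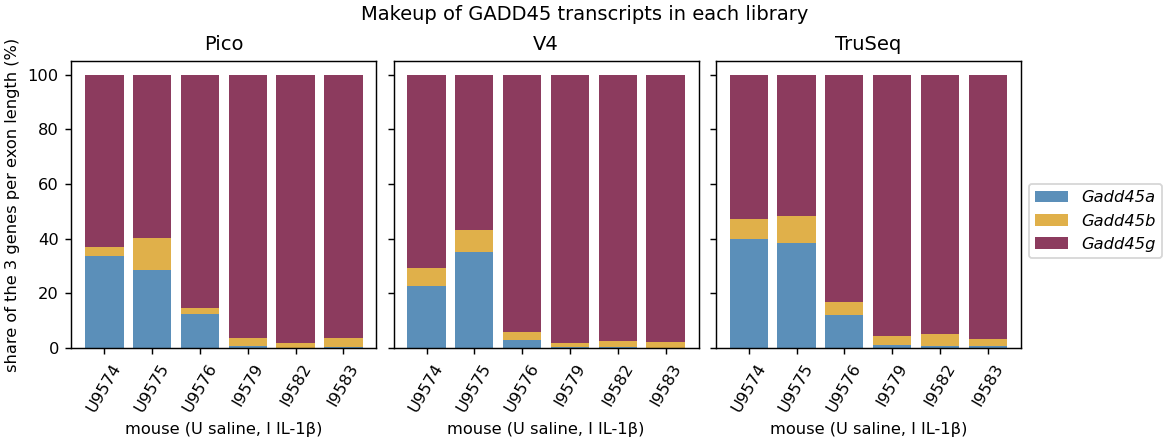
Share of Gadd45a, Gadd45b and Gadd45g in the sum of their counts per exon base (percent), 1 stacked bar per mouse and 1 panel per kit. Gadd45g fills at least 94.8% of each IL-1β bar, and Gadd45a is visible mainly in the saline mice U9574 and U9575.

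The log2 ratio of Gadd45b to Gadd45a counts within a library does not depend on scaling. It averaged 1.61 ± 0.62 (SD, n = 3) after IL-1β and -2.32 ± 0.52 after saline in TruSeq, a difference of 3.94. The difference was 4.77 in Pico and 4.75 in V4. For Gadd45g against Gadd45a it was 5.68 in TruSeq, 6.69 in V4 and 6.18 in Pico. The groups did not overlap for either ratio in any kit, and the two-sided exact permutation p was 0.1 each time, the smallest that 3 mice against 3 allow.

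Cdkn1a, the CDK inhibitor that p53 and many cytokines induce, lies at chr17:29227924-29237667 and had the largest fold change of the 9 genes in each kit. It had 1260, 1281 and 946 counts after IL-1β and 11, 16 and 15 after saline in TruSeq. In V4 the counts were 2590, 2376 and 1397 against 10, 21 and 23. In Pico they were 164, 201 and 109 against 0, 4 and 3. The saline level was near the floor of detection in Pico, and I9583 was the lowest treated mouse in all 3 kits. The log2 fold change was 6.37 (SE 0.31, q = 1.73e-06) in TruSeq, 6.88 (SE 0.69, q = 0.000172) in V4 and 6.30 (SE 0.79, q = 2.89e-05) in Pico by limma-voom. It passed the test in each kit under each alternative tried, but the Pico value was 5.31 without U9574, which had no count, and 6.88 without U9575.

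Cdkn1b, the related inhibitor that holds resting cells out of the cycle, lies at chr6:134870419-134875531. It had 217, 264 and 282 counts after IL-1β and 312, 381 and 266 after saline in TruSeq, and the groups overlapped. Its log2 fold change was -0.28 in TruSeq, with a 95% confidence interval of -0.64 to 0.08. Pico gave -0.30 (-0.85 to 0.25) and V4 gave 0.55 (-0.73 to 1.83), neither past the test. The log2 ratio of Cdkn1a to Cdkn1b rose from -4.47 ± 0.33 after saline to 2.19 ± 0.40 after IL-1β in TruSeq (exact permutation p = 0.1, the smallest possible), so the order of the 2 inhibitors by counts turned over. In Pico the ratio went from -5.77 ± 1.62 to 0.83 ± 0.46, and in V4 from -0.37 ± 1.0 to 5.96 ± 0.35. In V4 saline mouse U9575 already had more Cdkn1a than Cdkn1b counts (log2 ratio 0.78).

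Btg2, an early response gene of the BTG family, lies at chr1:135971747-135975697 on the minus strand. Its counts were 1068, 1023 and 914 after IL-1β and 157, 123 and 107 after saline in TruSeq. V4 gave 1163, 1187 and 841 against 178, 187 and 163. Pico gave 260, 250 and 227 against 39, 24 and 32. Among Cdkn1a, Gadd45g, Gadd45b and Btg2, the last had the smallest standard error in each kit, with a log2 fold change of 3.01 (SE 0.15, q = 2.05e-06) in TruSeq, 2.58 (SE 0.24, q = 0.000106) in V4 and 2.99 (SE 0.28, q = 1.29e-06) in Pico by limma-voom. I9583 was the lowest treated mouse for Btg2 in each kit, as it was for Cdkn1a.

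Btg1, its close relative, lies at chr10:96079635-96085447. It had 372, 308 and 200 counts after IL-1β and 385, 339 and 307 after saline in TruSeq, with overlapping groups. Its log2 fold change was -0.22 in TruSeq (95% interval -0.69 to 0.24), -0.05 in V4 (-0.52 to 0.42) and 0.27 in Pico (-0.25 to 0.80), and the V4 value turned positive with TMM scaling (0.12). The log2 ratio of Btg2 to Btg1 differed between treatments by 3.24 in TruSeq, 2.64 in V4 and 2.71 in Pico, without overlap of the groups (exact permutation p = 0.1, the smallest possible). I9583 was again the lowest treated mouse for Btg1 in each kit.

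Mdm2, the ubiquitin ligase that p53 induces and that in turn limits p53, lies at chr10:117125944-117147814 on the minus strand. TruSeq counted 564, 559 and 492 reads after IL-1β and 487, 437 and 382 after saline, so that the lowest treated mouse (I9583) lay just above the highest saline mouse (U9574). The log2 fold change was 0.35 (SE 0.12, q = 0.0496) in TruSeq by limma-voom. It was 0.35 (95% interval -0.27 to 0.96) in V4 and 0.22 (-0.14 to 0.58) in Pico, and neither passed the test. The TruSeq call was lost when I9579 (q = 0.143), I9582 (q = 0.144), U9575 (q = 0.111) or U9576 (q = 0.144) was left out. The log2 ratio of Cdkn1a to Mdm2 differed between treatments by 6.02 in TruSeq, 6.54 in V4 and 6.08 in Pico.

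Ccnd1, which encodes cyclin D1, lies at chr7:152115836-152125774 in the annotation used. Its TruSeq counts were 380, 222 and 266 after IL-1β and 352, 425 and 291 after saline. The groups overlapped in each kit. The log2 fold change was -0.27 in TruSeq (95% interval -0.73 to 0.18), -0.31 in V4 (-1.22 to 0.61) and -0.12 in Pico (-0.64 to 0.40), and the Pico value was 0.00 with TMM scaling. Oraov1, a gene on the other strand, shares 818 exon bases with Ccnd1, 21.3% of the exons of Ccnd1. Its log2 fold change by limma-voom was -0.59 (SE 0.15, q = 0.013) in TruSeq and -1.15 (SE 0.41, q = 0.101) in V4. As V4 carries no strand, its reads of the shared stretch cannot be assigned to either gene.

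**Figure D3:**
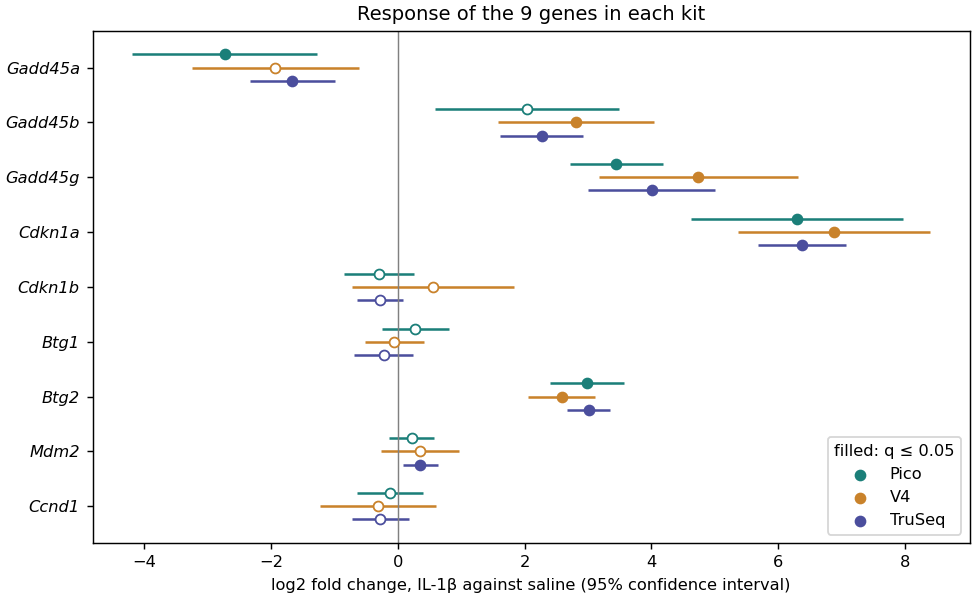
Log2 fold change of IL-1β against saline for the 9 genes in Pico, V4 and TruSeq, with 95% confidence intervals from limma-voom (n = 3 mice per treatment), filled where q is at most 0.05. Cdkn1a, Gadd45g and Btg2 are filled in all 3 kits, and Cdkn1b, Btg1 and Ccnd1 in none.

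Counted together, 4 of the 9 genes were called in Pico, where 17.6% of all 18108 genes tested were called. Of these 3 were higher (6.78% of all genes) and 1 lower (10.8%). In V4 4 were called, all higher, against 11% of 18051 genes in either direction and 3.6% higher. In TruSeq 6 were called, against 34.1% of 19424 genes, with 5 higher (12.3% of all genes) and 1 lower (21.8%). The IL-1β mice lay above all saline mice for 5 genes in TruSeq, 4 in V4 and 4 in Pico, where 17.1%, 9.09% and 12.6% of all genes did. They lay below for 1 gene in each kit, Gadd45a, against 27.9%, 18.6% and 18.6%. In either direction 44.9%, 27.6% and 31.2% of all genes did not overlap. Leaving out U9576 gave 4 calls in Pico, 4 in V4 and 5 in TruSeq. Since the 9 genes were chosen with earlier results of these data known, these counts are a description.

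A fit of all 18 libraries with the mouse as a block gave the response averaged over kits. It called 6 of the 9 genes, 5 higher and 1 lower, against 40.6% of 16184 genes (14.4% higher, 26.2% lower). The log2 fold changes were 6.60 for Cdkn1a (SE 0.41), 4.43 for Gadd45g (SE 0.45), 2.81 for Btg2 (SE 0.14), 2.54 for Gadd45b (SE 0.32), 0.31 for Mdm2 (SE 0.12) and -1.98 for Gadd45a (SE 0.33). The limma-voom q of Mdm2 was 0.0332, and this call was lost without I9579 (q = 0.0821), I9582 (q = 0.103), U9575 (q = 0.0747) or U9576 (q = 0.088). The value of Gadd45g was 5.59 without U9576, 3.68 without U9575 and 3.61 by edgeR. The block used 1 correlation for all genes (0.104), so the 3 libraries of a mouse counted nearly as separate samples. For genes whose mice deviate alike in the 3 kits, such as Gadd45g, the SE and q of this fit can be too small.

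Whether the response differed between a low-input kit and TruSeq was tested by the interaction of kit and treatment. No member passed that test by limma-voom, edgeR or DESeq2 (DESeq2 gave Gadd45g no adjusted p in V4), none had an unadjusted limma-voom p under 0.05, and 0 of 17207 genes for Pico and 0 of 17147 for V4 were called at q, with 5.49% and 6.36% of genes at an unadjusted p under 0.05. The largest member difference for Pico was that of Gadd45a, -1.07 (95% interval -2.51 to 0.38). For V4 it was that of Cdkn1b, 0.83 (-0.32 to 1.98), and Gadd45g had 0.73 (-1.78 to 3.25). The intervals of Btg2 were the narrowest among the genes called in every kit, -0.66 to 0.62 for Pico and -1.04 to 0.19 for V4. These values come from a fit that took the libraries of a mouse as separate samples. For genes whose mice deviate alike in the kits, such as Gadd45g, its intervals can be too wide and its p-values too large. The kits also differ in input, sequencer and read length, and the paper's methods credit the TruSeq libraries to an earlier study. None of these can be told apart from the kit.

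Levels of some members also differed between kits. The tables were normalized separately, so CPM is set side by side here without a test. Gadd45g was 4.20 times higher in V4 than in TruSeq, averaged on the log2 scale over the 6 mice (CPM + 0.5), and Gadd45b was 2.28 times higher. Cdkn1b was 8.38 times lower in V4, Ccnd1 was 3.8 times lower and Mdm2 was 2.19 times lower, in 6 of 6 mice each. Pico stayed nearer to TruSeq, between 2.0 times lower for Cdkn1a and 1.48 times higher for Gadd45g. Across the 9 genes the log2 ratio of V4 to TruSeq had a Spearman correlation of -0.85 with exon length, against -0.63 over the 8960 genes whose mean count reached 20 in all kits. For Pico the values were 0.13 and 0.42. The 9 points come from the same libraries and are a description.

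**Figure D4:**
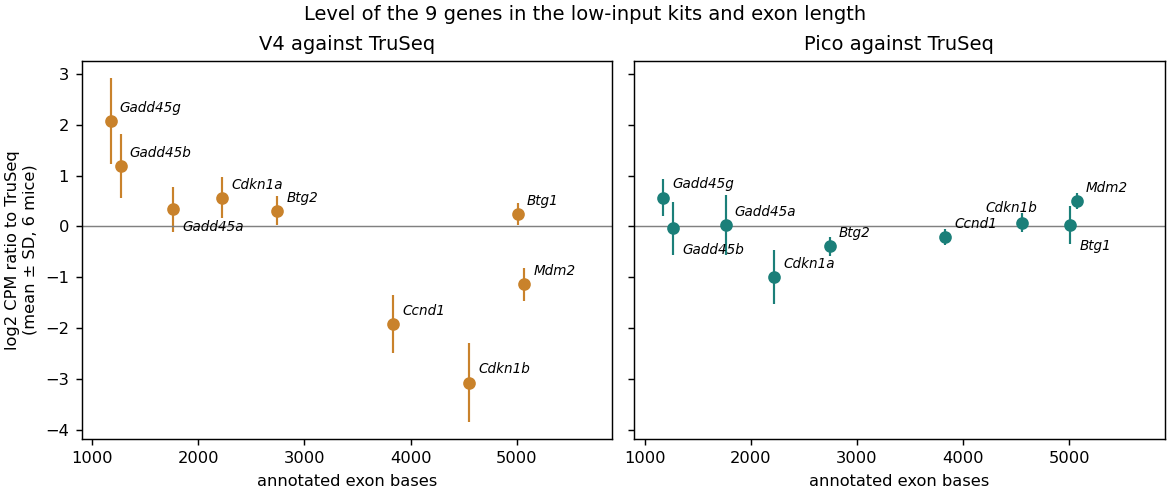
Log2 ratio of CPM in V4 (left) and Pico (right) to TruSeq for the 9 genes (mean ± SD over 6 mice), against annotated exon bases. In V4 the short genes Gadd45g and Gadd45b lie above 0 and the long genes Cdkn1b, Ccnd1 and Mdm2 below, while Btg1, with 5010 exon bases, lies near 0.

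Within a kit, levels per exon length (RPKM computed from the counts) ranked the members. After IL-1β in TruSeq, Gadd45g was first with 89.8 ± 14.7 RPKM (SD, n = 3), then Cdkn1a with 42.2 ± 6.86 and Btg2 with 29.5 ± 2.33, each apart from the next in range. Mdm2 (8.57), Ccnd1 (6.08), Btg1 (4.72) and Cdkn1b (4.51) followed with overlapping ranges, and Gadd45b (3.19) and Gadd45a (0.777) came last, each apart from its neighbours. After saline, Gadd45g (7.49 ± 7.41), Ccnd1 (7.27), Mdm2 (6.73), Cdkn1b (5.50) and Btg1 (5.38) overlapped in their ranges. Btg2 (3.69) and Gadd45a (2.38) came next, and Gadd45b (0.659) and Cdkn1a (0.493) were last and overlapped. Cdkn1a thus went from the last to the second place of the 9 genes in TruSeq. In V4 it went from the place before the last, overlapping Cdkn1b below it, to the second. In Pico it went from the last to the third, where its range overlapped those of Btg2 and Mdm2.

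Deviations of each mouse from its group mean were compared across kits, which share that mouse's RNA. Of the 9 genes, 7 had the same sign of deviation in all 3 kits for U9574, 6 for I9579, 6 for I9582, 4 for I9583, 3 for U9575 and 2 for U9576. The share over all genes was not computed, and some signs agree by chance, so these counts are a description. The 2 genes for U9576 were Gadd45g and Cdkn1a. For Gadd45g, U9576 lay above the saline mean by 1.46 in TruSeq, 2.65 in V4 and 1.22 in Pico on the log2(CPM + 0.5) scale. For Gadd45a, I9579 lay above the IL-1β mean by 0.52, 0.99 and 1.0 in the same order of kits. For Cdkn1a, the deviation of I9583 was -0.28, -0.55 and -0.48.

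The genes most like each member were taken by Pearson correlation of log2 CPM centred within kit, over the 18 libraries and among 8960 genes. They are a description, since the 3 libraries of a mouse share its RNA and a treatment response alone makes genes alike. Gadd45g was most like Cebpd, a transcription factor of the acute phase (r = 0.98), and Plk3, a stress kinase (r = 0.97), and U9576 was the highest saline mouse for both in each kit, by 1.69 to 3.07 times for Cebpd and 1.80 to 2.71 times for Plk3. Gadd45b was most like Caskin2 and Phf23 (r = 0.968 and 0.965). Cdkn1a was most like the secreted phospholipase gene Pla2g12b and the interferon-inducible GTPase gene Gbp2 (r = 0.996 and 0.994). Btg2 was most like Pnp, of purine salvage, and Steap4, a metalloreductase gene (r = 0.995 and 0.992). Gadd45a, which fell, was most like Nfu1 and Adh6-ps1 (r = 0.950 and 0.948). Nfu1 fell less, by 0.43 on the log2 scale in TruSeq (SE 0.13), and was not called in Pico or V4. Gadd45a and Gadd45b did not themselves reach the mean of 20 counts in every kit that defined the 8960 genes. The weaker matches were Tmem131 and mt-Nd4l for Cdkn1b (0.886 and 0.853), Bet1 and Mpp6 for Btg1 (0.796 and 0.795), Setd5 and Ptprj for Mdm2 (0.864 and 0.862), and C130039O16Rik and Oxsr1 for Ccnd1 (both 0.775).

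Around the members, 7 lists of related genes held 104 genes. They were chosen with earlier results of these data known, and the shares over all genes include genes with few counts. The list shares beside them are therefore a description. In TruSeq 50 of the 102 tested were called (24 higher, 26 lower), or 49% against 34.1% of all genes. In Pico 28 of 103 were called (14 higher, 14 lower), or 27.2% against 17.6% of all genes, and in V4 19 of 102 (11 higher, 8 lower), or 18.6% against 11%. Over all genes 12.3% were higher and 21.8% lower in TruSeq, 6.78% and 10.8% in Pico, and 3.6% and 7.41% in V4. TMM scaling moved the splits of the lists to 26 higher and 21 lower in TruSeq, 19 and 10 in Pico and 15 and 7 in V4. The median log2 fold changes of the lists below are for TruSeq, where that of all genes was -0.17.

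Of 26 genes of the p53 pathway, 11 rose and 8 fell in TruSeq (median 0.32). The list's leading genes were Plk3, the death receptor gene Fas, and Gdf15, a stress cytokine. Plk3 had 2512, 2483 and 3301 counts after IL-1β and 430, 368 and 951 after saline in TruSeq, a log2 fold change of 2.41 (SE 0.28). Gdf15 had 70, 73 and 30 against 19, 11 and 5, with 2.38 (SE 0.54), and was not called in Pico. Fas had 818, 625 and 545 against 163, 181 and 153, with 2.02 (SE 0.17). Mdm2, itself a p53 target, had a log2 fold change of 0.35 in the same libraries.

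Other members of the growth arrest and DNA damage group included Ddit4, an inhibitor of mTOR signalling, Ddit3, a transcription factor of the stress response, and Gas1, a membrane protein of growth-arrested cells. Of 11 such genes 4 rose and 2 fell in TruSeq (median 0.55). Ddit4 rose by 3.57 (SE 0.23) and Ddit3 by 2.44 (SE 0.25) on the log2 scale. Gas1 fell by 3.55 (SE 0.49), from 87, 166 and 91 counts after saline to 9, 14 and 5.

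Of 9 GADD45 partners and stress kinases, 2 rose and 3 fell in TruSeq (median -0.16). Map2k6, the kinase that activates p38, fell by 4.12 (SE 0.31), from 126, 122 and 134 counts to 4, 8 and 9, and it passed the test in all 3 kits. Map3k4, the kinase that GADD45 proteins bind, fell by 0.73 (SE 0.12) and Mapk9, which encodes a JNK, by 0.69 (SE 0.13). Map3k4 and Mapk9 were not called in V4.

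Of 11 other BTG/TOB and deadenylase genes, 4 rose and 2 fell (median 0.14). Btg3, a further BTG gene, rose by 3.01 (SE 0.35), with 73, 85 and 63 counts after IL-1β and 14, 10 and 5 after saline. Cnot8, a deadenylase subunit, fell by 1.11 (SE 0.14), and Cnot3, a further CCR4-NOT subunit, rose by 0.82 (SE 0.15). Cnot8 was called in all 3 kits, while Btg3 was not called in V4 and Cnot3 was not called in Pico.

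Of the other CDK inhibitors, 4 were tested in TruSeq, of which 0 rose and 2 fell by limma-voom (median -0.95). Cdkn1c, the third member of the Cdkn1 family, had 3, 4 and 2 counts after IL-1β and 8, 17 and 16 after saline, a log2 fold change of -1.95 (SE 0.47, q = 0.00998 by limma-voom). Cdkn2c had 12, 14 and 17 against 49, 59 and 40, with -1.70 (SE 0.28). Cdkn1c was not called in V4, and Cdkn2c was called in TruSeq only.

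Of 17 G1 cyclin, CDK, RB and E2F genes, 3 rose and 5 fell (median -0.34), and 3 fell with TMM scaling. E2f2 and E2f1, transcription factors of S phase entry, fell by 2.44 (SE 0.61) and 1.48 (SE 0.29), and Ccne1, a G1/S cyclin gene, rose by 1.45 (SE 0.31). In V4 E2f2 had no count in the 3 IL-1β libraries and 40 in the 3 saline libraries, at least 13.3-fold lower against a floor of 3 counts over the group. In Pico its log2 fold change was -0.14 (SE 0.83, limma-voom q = 0.932), with 2, 6 and 2 counts against 2, 6 and 3. E2f1 passed the limma-voom test neither in Pico (-1.59, q = 0.183) nor in V4 (-1.52, q = 0.193), and Ccne1 passed it in V4 (1.87) but not in Pico (1.49, q = 0.0951). Of 24 genes of S phase and mitosis, 0 rose and 4 fell by limma-voom (median -0.11), and with TMM scaling 1 rose and 3 fell. Rrm2 and Rrm1, subunits of ribonucleotide reductase, fell by 2.25 (SE 0.44) and 0.78 (SE 0.14), and Birc5, a mitotic survival gene, by 1.47 (SE 0.39). Rrm2 was called in all 3 kits. By limma-voom Birc5 did not pass in Pico (-0.31, q = 0.811) or V4 (-0.13, q = 0.937), nor did Rrm1 (-0.67, q = 0.255 and -0.37, q = 0.76).

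**Figure D5:**
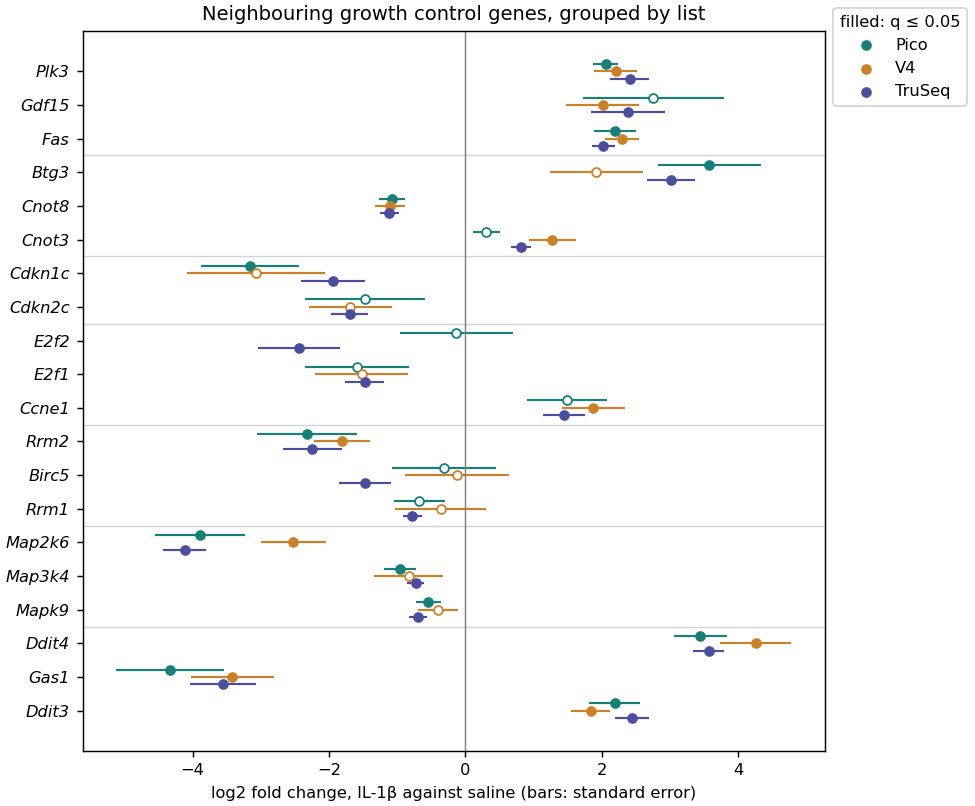
Log2 fold change of IL-1β against saline (bars: standard error, limma-voom, n = 3 mice per treatment) in 3 kits for the genes named from the 7 lists, with grey lines between lists and points filled where q is at most 0.05. Ddit4, Plk3, Fas and Ddit3 lie to the right and Gas1 and Map2k6 to the left in each kit, and E2f2 is left out for V4, where it had no count after IL-1β.

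Markers of cell types moved with treatment as well. The summed CPM of 7 neutrophil markers was 45.2 to 89.0 after IL-1β and 3.36 to 6.09 after saline in TruSeq, with Ly6g and Ngp at 0 in all saline libraries. In V4 the sum of the 6 markers in the table was 42.3 to 80.1 against 2.15 to 5.24, and in Pico 38.6 to 48.9 against 0.971 to 5.15. The 7 hepatocyte markers, all present, summed to 66707 to 72887 after IL-1β and 91933 to 109135 after saline in TruSeq. Sums of 8 Kupffer cell and macrophage markers (67.3 to 97.7 against 136 to 229), 6 sinusoidal endothelial markers (60.3 to 82.4 against 144 to 166) and 7 stellate cell markers (169 to 222 against 284 to 333) were also lower after IL-1β in TruSeq. Those of 5 cholangiocyte markers (42.7 to 51.3 against 46.2 to 64.7) overlapped and those of 7 T and NK cell markers (1.05 to 2.25 against 2.10 to 2.21) overlapped. Those of 4 B cell markers were 0.403 to 0.885 against 1.94 to 4.19. The part of these cells in the responses of the 9 genes was not tested.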

How the data were processed

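The values are the authors' deposited counts of reads per gene, 1 table per kit. Per the labels and the methods, reads were aligned to mm9 with GSNAP, and the authors removed ribosomal reads and resampled libraries to a common depth within each kit. Counts are sense reads for Pico and TruSeq and reads of both strands for V4. The run of Pico that the table holds is not given in the sources used here.

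Each kit was fitted with limma-voom (limma 3.58.1, R 4.3.3) on library totals and all genes with a count in the kit, with Benjamini-Hochberg adjustment. The 3-kit fit took the mouse as block (duplicateCorrelation, consensus 0.104). Ratios added 0.5 counts, and log2 CPM added 0.5. Summaries used Python 3.11.15, pandas 2.3.3, scipy 1.17.1 and matplotlib 3.10.9. Alternatives were TMM factors, edgeR 4.0.16, DESeq2 1.42.0, a filter (10 counts in 3 libraries), no filter, thinning to 4024632 counts, 1 fit of all 18 libraries, other q thresholds, each mouse left out, and the replicate block. Only the fits within a kit were run on simulated counts, drawn independently per library with known changes balanced in direction. That simulation held no mice shared between kits and did not cover the fits across kits.

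Each mouse's RNA entered all kits, so mouse numbers pair the libraries. Deviations of the same mouse correlated by 0.191 to 0.437 (Pico and TruSeq), 0.157 to 0.439 (V4 and TruSeq) and 0.0718 to 0.225 (Pico and V4), and those of different mice by -0.351 to -0.0295. Deviations are taken from the group mean, so positive values for the same mouse force negative ones on average for different mice. The labels give 1 mouse per number, with 1 library per mouse and kit. P-values within a kit therefore rest on the spread between mice and between library preparations, which cannot be told apart there.

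The members, related lists, markers and motifs were chosen with earlier results of these data known. Named genes were the 9 members, the 3 largest changes per list among genes called in TruSeq with the same sign in all kits, the 2 genes most like each member, and genes overlapping a member. Where a symbol had 2 identifiers (Tob2, Map3k4), the one with more reads was used.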

Additional observations from a re-analysis of the deposited data

How the results depend on the processing

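The directions and calls of Cdkn1a and Btg2 held in each kit and in the fit over the kits under all alternatives, and those of Gadd45g under all but 1, besides DESeq2, which gave it no adjusted p in V4 or over the kits. With no filter, 2 members were called in V4 (Cdkn1a and Btg2), since Gadd45b (q = 0.0661) and Gadd45g (q = 0.0818) were lost in limma-voom fits with more genes. Of the members' log2 values under the alternatives, 634 kept direction and side of the threshold, 19 fell short of it, 6 passed it and 41 changed sign. Gadd45b was called in Pico with TMM (q = 0.0383), edgeR (0.0237), DESeq2 (0.0329) and the filter (0.0484). Gadd45a was called in V4 with the filter (q = 0.0471) and in 1 fit of all 18 libraries (0.00399), and lost in Pico with no filter (0.0681) and in TruSeq after thinning (0.0685). Mdm2 was lost in TruSeq with no filter (q = 0.0824), thinning (0.0641) and 1 fit of all 18 libraries (0.118), and kept with TMM (0.00813), edgeR (0.00641), DESeq2 (0.00253) and the filter (0.033). Fits without a replicate block over the kits called 6 members, as with it, and the mouse as a block in the tests between kits called 0 of 9. Adding this block, with its 1 correlation for all genes, thus changed no call.

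Leaving out each mouse gave 3 to 4 calls in Pico, 3 to 4 in V4, 5 to 6 in TruSeq and 5 to 6 over the kits. Signs turned in values that were not called, as follows, and the cause was not tested. On the log2 scale Ccnd1 in Pico was 0.0043 (TMM), 0.0059 (edgeR) and 0.0001 (DESeq2), and -0.3089 to 0.0244 with a mouse left out. Btg1 in V4 was 0.118 (TMM), 0.1125 (edgeR) and 0.1197 (DESeq2), and -0.1303 to 0.0706 with a mouse left out, and in TruSeq -0.4174 to 0.0289. Over the kits Btg1 was 0.1042 (TMM), 0.1785 (edgeR), 0.1481 (DESeq2) and 0.0064 (thinned), and -0.2027 to 0.1251 with a mouse left out, and Cdkn1b was 0.0408 (edgeR) and 0.0125 (DESeq2). The difference between Pico and TruSeq after thinning was 0.1318 for Gadd45b, 0.439 for Cdkn1a and 0.0864 for Btg2. With a mouse left out it was -0.5596 to 0.2417 for Gadd45b, -0.9136 to 0.4115 for Cdkn1a, -0.1575 to 0.0872 for Cdkn1b and -0.1813 to 0.125 for Btg2. Between V4 and TruSeq it was 0.0575 for Gadd45a (DESeq2), -0.0863 and -0.0362 for Gadd45g (edgeR and DESeq2), and 0.0148 and 0.2779 for Mdm2 (DESeq2 and thinned). With a mouse left out it was -0.5607 to 0.2483 for Gadd45a, -0.259 to 0.2066 for Mdm2 and -0.521 to 0.4154 for Ccnd1.

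Pico libraries held 0 to 28 counts of Gadd45a, Gadd45b and, after saline, Cdkn1a. After thinning to the smallest library, limma-voom still called Gadd45b in TruSeq (q = 0.0172) and V4 (q = 0.0138). It did not call Gadd45a in TruSeq (q = 0.0685) or V4 (q = 0.0954) after thinning. The part of depth in the Pico results was not tested.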
